A study of Mus musculus with 4 samples.

Results

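Malat1, Neat1, Gm42418, AY036118, Cmss1, Cdk8 and Lars2 were followed as 7 of the 32285 genes counted in hepatic CD4+ T cells of mice with diet-induced MASH. They were chosen by symbol, as long noncoding RNAs kept in the nucleus (Malat1 and Neat1) and as genes assumed to be linked to ribosomal RNA (rRNA) sequence (the other 5). The latter are called the rRNA side after that choice. An overlap with a transcript annotated as rRNA was shown for Gm42418 and AY036118 alone, in a search that lacked full large-subunit rRNA. Gm42418 was picked because of its ratio between the libraries, which is therefore given as a description. All 7 were counted in both libraries and passed a level of 50 CPM (a gene's UMIs scaled to a common total of each library) in each.

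Cells were sorted as hepatic CD4 T cells, captured in droplets with a 5′ kit whose unique molecular identifiers (UMIs) mark single RNA molecules, and sequenced as 1 library per genotype. Each library pooled 2 male mice fed CD (a choline-deficient diet with 60 kcal% fat and 0.1% methionine) for 8 weeks. WT mice were compared with dKO mice, which carry Nr4a1 fl/fl and Nr4a2 fl/fl alleles and Cd4-Cre, a Cre that is driven by Cd4 sequences and acts in the T cell lineage. Both groups had the same diet. The age of these mice and whether the WT mice carried floxed alleles are not given in the sources used here. The files do not separate the pooled mice, so no test between genotypes was run, and intervals in parentheses are exact 95% intervals that cover counting error only.

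After filtering, 10556 cells with 23437516 UMIs remained in the WT-labelled library and 17462 cells with 37794986 UMIs in the dKO-labelled library, with medians of 1679 and 1685 UMIs per cell. Of the barcodes, 242 occurred in both libraries, which is 2.29% and 1.39% of their cells. The targeted genes went against the labels: Nr4a1 had 725 CPM in the WT-labelled library and 1659 CPM in the dKO-labelled library, and Nr4a2 had 183 CPM and 306 CPM. These counts are per gene and not per exon, so they do not tell RNA with the floxed exons from RNA without them. The Treg-like cluster 1 held 4.72% of the cells in the WT-labelled and 34.1% in the dKO-labelled library. Cd3e, a subunit of the T cell receptor complex, was at 964 and 1093 CPM in cluster 0 but at 131 and 126 CPM in cluster 2, which had genes of plasmacytoid dendritic cells, so that part of the sorted cells did not carry the defining marker of T cells.

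Malat1 and Neat1 are abundant long noncoding RNAs that stay in the nucleus, where Malat1 is found in nuclear speckles, sites rich in splicing factors, and Neat1 is the scaffold of paraspeckles. Ribosomal RNA is made in the nucleolus by RNA polymerase I, has no poly(A) tail as a rule, and is processed to the RNAs of the small subunit, 18S, and of the large subunit. Kits that prime on poly(A) therefore capture little of it, and what is captured can be assigned to any annotated gene that shares its sequence. Cmss1 encodes the relative of a yeast protein linked to the small ribosomal subunit, Cdk8 the kinase of the Mediator complex, and Lars2 the leucyl-tRNA synthetase of mitochondria.

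The annotation places these genes on 5 chromosomes of GRCm38 (GENCODE M21), and its transcript sequences were compared with those of annotated rRNA. Gm42418 (ENSMUSG00000098178) is a single-exon gene of 1831 bases at chr17:39846958-39848788 on the plus strand. Its first 1244 bases, 67.9% of its length, are the exact reverse complement of the rRNA transcript annotated on the opposite strand (CT010467.1, not in the count tables). Bases 1146 to 1831 align to the opposite strand of another transcript of the same gene, annotated as a pseudogene, with 98.4% identity, so that the whole of Gm42418 lies opposite this gene. AY036118 (ENSMUSG00000105361), 923 bases at chr17:39847113-39848035 on the minus strand, is over its whole length the reverse complement of bases 156 to 1078 of Gm42418. RefSeq lists Gm42418 as another name of Rn18s-rs5, a pseudogene of 18S rRNA. The stretch in which Gm42418 leaves the exact match to the rRNA transcript is shown with the matching bases in capitals (chr17:39848172-39848231, plus strand). Those bases are the conserved 3′ end of 18S rRNA in its own direction. Gm42418 thus runs in the direction of 18S rRNA, while AY036118 and the annotated rRNA transcript run against it. The first 40 bases of AY036118 and the bases of Gm42418 opposite to them follow in capitals, since each base of one pairs with the other (chr17:39847996-39848035).
Gm42418: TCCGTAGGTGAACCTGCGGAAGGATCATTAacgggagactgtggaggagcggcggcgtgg
AY036118: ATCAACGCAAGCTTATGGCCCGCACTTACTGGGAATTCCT
Gm42418 opposite strand: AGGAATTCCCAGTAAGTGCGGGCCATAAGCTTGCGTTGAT

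**Figure D1:**
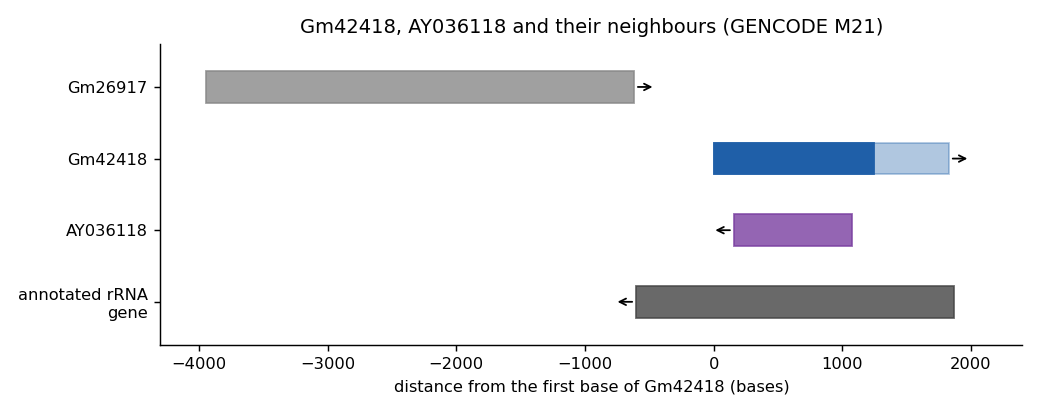
The bars show, by distance in bases from the first base of Gm42418, the annotated extent of Gm26917, Gm42418, AY036118 and the annotated rRNA gene, and the arrows show the strand. The dark section of Gm42418 marks its first 1244 bases, which match the rRNA, and the bar of AY036118 lies wholly within it on the other strand.

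The 3 protein-coding members shared little or no spliced sequence with the rRNA-related transcripts that were searched. Lars2 (ENSMUSG00000035202, chr9:123366927-123462666, plus strand) holds in its 3′ UTR a stretch of 72 bases, chr9:123462048-123462119, that matches the antisense gene Gm15564 with 1 mismatched base and lies after the last coding base. Gm15564 was listed here among symbols at or near rRNA sequence. The first 30 bases of that stretch are printed in capitals since all of them lie within the match.
Lars2: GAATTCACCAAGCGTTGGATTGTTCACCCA
Of 9 Cdk8 transcripts (ENSMUSG00000029635, chr5:146231230-146302874, plus strand) 1, with a retained intron, had a match of 67.0% identity to Gm15564, and none of 3 Cmss1 transcripts had one (ENSMUSG00000022748, chr16:57302000-57606864, minus strand). Introns were not searched, and the search set held 364 transcripts, those annotated as rRNA and a few related symbols. Cmss1 overlaps Filip1l on the opposite strand over 220034 bases. Malat1 (ENSMUSG00000092341, chr19:5795690-5802672) and Neat1 (ENSMUSG00000092274, chr19:5824708-5845478) lie 22035 bases apart on the minus strand, and none of their transcripts matched the search set. Only Gm42418 and AY036118 were thus shown to overlap a transcript annotated as rRNA. No full sequence of the long RNA of the large subunit or of the rRNA precursor was at hand. A missing match therefore does not exclude rRNA sequence in the other members.

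Between the libraries, the 5 genes of the rRNA side were higher by 2.5-fold to 3.28-fold in the WT-labelled library, whereas Malat1 was close to equal. Gm42418 had 13353 CPM (13307 to 13400) in the WT-labelled library and 4613 CPM (4592 to 4635) in the dKO-labelled library, 2.89-fold lower in the latter (2.88 to 2.91). It held the most UMIs of all genes in the former and was in place 11 in the latter. Cdk8, at 7027 CPM (6993 to 7061) against 2142 CPM (2128 to 2157), had the highest ratio, 3.28-fold. Cmss1 had 2981 CPM (2959 to 3003) and 1014 CPM (1004 to 1024), a ratio of 2.94-fold.

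The other 2 genes of this side were lower in level and moved alike. AY036118 had 1167 CPM (1153 to 1181) and 466 CPM (460 to 473), a ratio of 2.5-fold, and Lars2 had 696 CPM (685 to 707) and 265 CPM (260 to 270), a ratio of 2.63-fold. Neat1 was 1.5-fold higher (1.43 to 1.58) in the WT-labelled library, with 137 CPM (132 to 142) against 91.0 CPM (88.0 to 94.1). Malat1 had 6770.0 CPM (6737 to 6803) and 6703 CPM (6677 to 6729), a log2 ratio of dKO over WT of −0.01 (−0.02 to −0.01) whose sign turned with TMM or median of ratios scaling. Together the 7 genes took 3.21% of all UMIs in the WT-labelled library and 1.53% in the dKO-labelled library.

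Of the 7 genes, 5 were thus over 2-fold higher in the WT-labelled library and none over 2-fold lower. Over the 3735 genes with at least 50 CPM in a library, 2.70% were over 2-fold higher in the WT-labelled library and 3.69% over 2-fold lower, and the median log2 ratio of dKO over WT was 0.03 over the 3733 of them with UMIs in both. Since this contrast chose Gm42418, nothing is read from that count. The 2 libraries also differed in other respects that move with it: ribosomal protein genes took 21.1% and 18.8% of UMIs, and the clusters held different shares of cells. Preparation, sequencing and genotype cannot be told apart with 1 library each.

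How far the single cells of the libraries overlapped differed between the genes. In cells thinned to 1000 UMIs, which left out 1929 and 3071 shallower cells, the median cell of the WT-labelled library had 10 UMIs of Gm42418, a number that 10.6% of the cells of the dKO-labelled library reached. For Cdk8 the median was 5 UMIs and the share that reached it 12.9%. For the genes with fewer UMIs the overlap was larger: the median was 2 UMIs for Cmss1, reached by 25.1%, and 1 UMI for AY036118, reached by 31.4%. For Lars2 the median cell of the WT-labelled library had no UMI at this depth, as had 58.9% of its cells and 79.1% of those of the dKO-labelled library. For Malat1 the median was 6 UMIs in both libraries, reached by 54.3% and 55.5% of cells, so that the libraries overlapped almost fully. Gm42418 varied the most between cells: its 5th and 95th percentiles in the WT-labelled library were 3 and 36 UMIs, its highest cell had 259 of 1000, and its variance was 14 times its mean, against 4.0 times for Malat1.

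**Figure D2:**
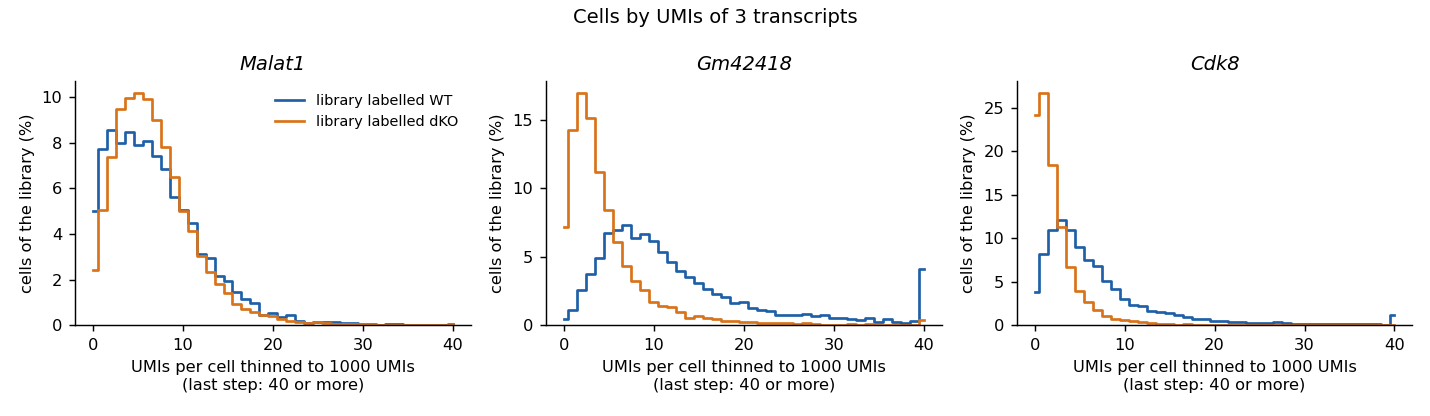
Each line gives the percent of a library's cells (vertical axis) with a given number of UMIs after thinning to 1000 UMIs per cell (horizontal axis, the last step holding 40 or more). The lines of the 2 libraries lie close together for Malat1, with medians of 6 UMIs, and apart for Gm42418, with medians of 10 and 3 UMIs, and Cdk8, with medians of 5 and 1 UMIs.

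The shares of thinned cells with at least 1 UMI were higher in the WT-labelled library for each gene other than Malat1, whose share went against its level, so that no order is read from it. Gm42418 was found in 99.6% (99.4 to 99.7) and 92.8% (92.4 to 93.3) of cells in the libraries labelled WT and dKO, Cdk8 in 96.1% and 75.9%, Cmss1 in 84.9% and 55.0%, AY036118 in 59.8% and 31.4%, and Lars2 in 41.1% and 20.9%. Malat1 was found in 95% (94.5 to 95.4) and 97.6% (97.3 to 97.8), and Neat1 in 10.3% (9.63 to 10.9) and 7.40% (6.98 to 7.84). Without thinning, the shares were 99.6% and 96.2% for Gm42418, 95.6% and 99.1% for Malat1 and 18.8% and 14.6% for Neat1. None of these transcripts is known to be absent from a cell type of the liver, so no cell type was at hand in which the share would measure RNA from outside the cell.

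To compare cell classes, cells were clustered by the steps of the study's methods. The 7 members and the 84 ribosomal protein genes were left out of the features. Of the 8 clusters, cluster 1 (498 cells of the WT-labelled library and 5951 of the dKO-labelled library) was Treg-like, with all 14 Treg markers over 2-fold above other cells. Cluster 2 (1648 and 4097 cells) was plasmacytoid dendritic cell-like, with all 14 markers of that class, and cluster 3 (1197 and 575 cells) was naive-like, with 7 of 9 markers, among them Lef1 and Ccr7. The others stayed unnamed because their leading genes belonged to several classes or to none. Cluster 0 (5528 and 5129 cells) was led by Klrk1, Fasl, Il17f and Ifng. Cluster 4 (793 and 578 cells) had all 12 cell cycle markers but was led by immunoglobulin genes, cluster 5 (559 and 729 cells) had 11 of 13 myeloid and 3 of 5 neutrophil markers and was also led by immunoglobulin genes, cluster 6 (228 and 325 cells) had a ribosomal protein share of 3.79% and 3.83% of its UMIs, and cluster 7 (105 and 78 cells) was led by Lingo2 and Chad.

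Malat1 was highest in cluster 6 and lowest in cluster 4 in both libraries. Its cluster 6 levels were 15675 (15268 to 16090) and 17178 CPM (16722 to 17644) in the libraries labelled WT and dKO, and every thinned cell had a UMI of it. In cluster 4, where the cell cycle genes were found, its levels were 3403 (3336 to 3471) and 2729 CPM (2671 to 2788), and 78.9% and 85.3% of thinned cells had a UMI, a share that went against the level and from which no order is read. The other 6 clusters lay close together, from 5648 to 7342 CPM in the WT-labelled library and from 6031 to 7590 CPM in the dKO-labelled library. Among them the order differed between the libraries: cluster 5 was the lowest of the 6 in the former, and cluster 0 in the latter. Clusters 0, 1 and 2 had 7237, 7109 and 7342 CPM in the WT-labelled library, where the intervals of each pair of them overlapped. In the dKO-labelled library they had 6031, 7186 and 7590 CPM, with intervals that did not overlap.

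Neat1 was highest in clusters 2, 5 and 6. Its level in the WT-labelled library was 309 CPM (292 to 326), 315 CPM (288 to 345) and 301 CPM (247 to 363) in that order, values whose intervals overlap. It was 87.5 CPM (82.1 to 93.2) in cluster 0 and between 49.4 and 80.9 CPM in the other 4 clusters. In the dKO-labelled library, clusters 2, 5 and 6 had 146 CPM (140 to 153), 164 CPM (148 to 181) and 163 CPM (121 to 215), again with overlapping intervals, and the other 5 between 32.4 and 53.2 CPM. Cells that carried a Neat1 UMI after thinning were 22%, 19.9% and 26.9% in clusters 2, 5 and 6 of the WT-labelled library, against 4.82% to 7.91% in the remaining clusters. The higher levels were thus found where markers of plasmacytoid dendritic or myeloid cells were found, and in cluster 6.

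Gm42418 was highest in cluster 5 and lowest in cluster 6 in both libraries. In cluster 5 it had 18339 CPM (18122 to 18557) in the WT-labelled library and 7172 CPM (7064 to 7282) in the dKO-labelled library. In cluster 6 it had 6974 CPM (6703 to 7252) and 1983 CPM (1830 to 2146), 1.93-fold and 2.34-fold below the other cells of the same library. In the WT-labelled library the order below cluster 5 was 15389 CPM in cluster 3, 14677 in cluster 7, 13547 in cluster 0, 12816 in cluster 1, 12383 in cluster 2 and 10550.1 in cluster 4. In the dKO-labelled library it was 6061 CPM in cluster 7, 4990 in cluster 3, 4846 in cluster 0, 4533 in cluster 2, 4259 in cluster 1 and 3409 in cluster 4, with overlapping intervals for clusters 3 and 0.

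The other genes of the rRNA side shared the low level in cluster 6 but not all of the order above it. AY036118 had 343 CPM (285 to 409) and 186 CPM (141 to 240) in cluster 6 and between 983 and 1436 CPM and between 395 and 621 CPM elsewhere. Cmss1 had 1301 and 339 CPM in cluster 6 and at least 2062 and 672 CPM elsewhere, Cdk8 had 2268 and 848 CPM against at least 5815 and 1535 CPM, and Lars2 had 284 and 86.4 CPM against at least 532 and 163 CPM. Gm42418, AY036118, Cmss1 and Lars2 were highest in cluster 5 in both libraries. Cdk8 was highest in cluster 7 of the WT-labelled library, with 8242 CPM (7878 to 8617), and in cluster 3 of the dKO-labelled library, with 2725 CPM (2614 to 2840). In the WT-labelled library the interval of Cdk8 in cluster 3, 7737 to 7964 CPM, overlapped that of cluster 7. For AY036118 the WT interval of cluster 7, 1093 to 1381 CPM, likewise overlapped that of cluster 5, 1376 to 1498 CPM. With cluster 6 left aside, the highest over the lowest cluster was 1.74-fold and 2.10-fold for Gm42418 and 6.39-fold and 5.07-fold for Neat1.

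**Figure D3:**
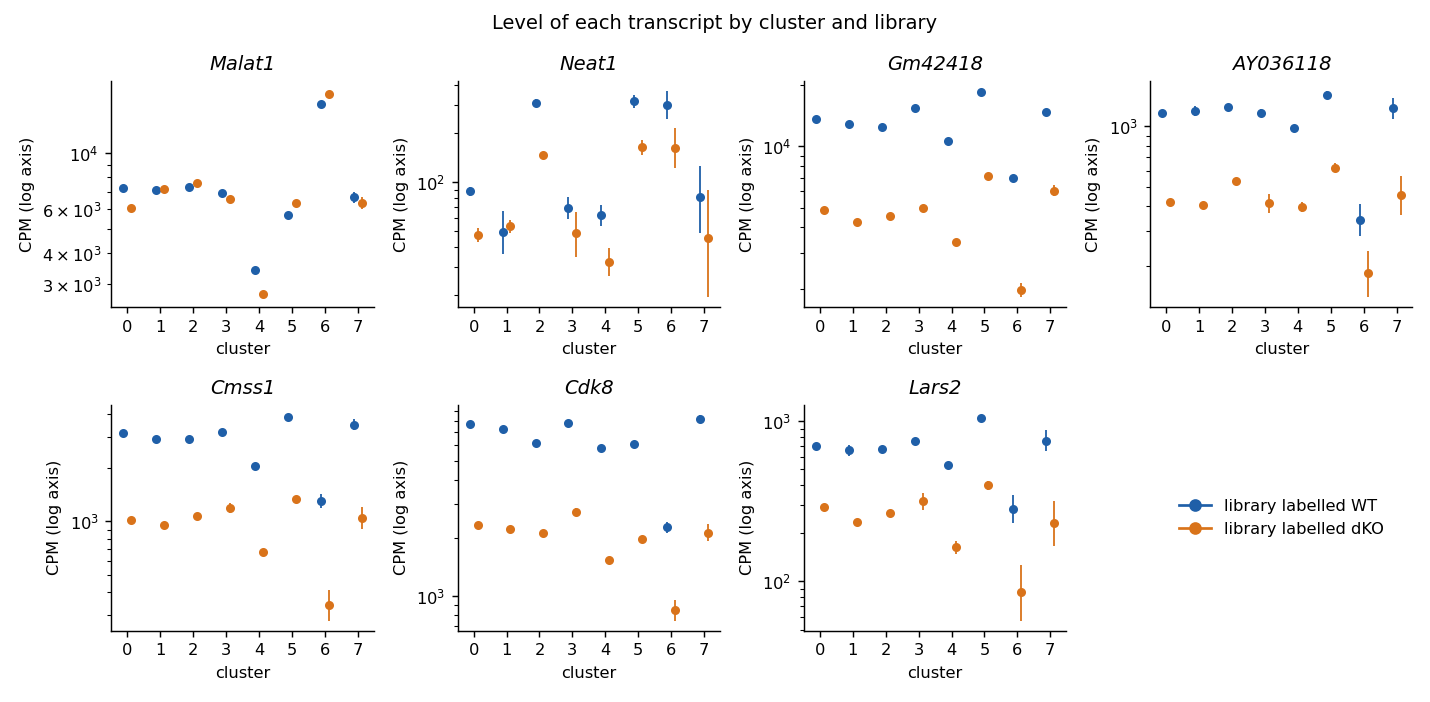
Points give the level of each transcript in CPM on a log axis in clusters 0 to 7 of the WT-labelled library and of the dKO-labelled library, and bars are exact 95% intervals for counting error. For Gm42418, AY036118, Cmss1, Cdk8 and Lars2 the points of the 2 libraries are separated in all 8 clusters and lowest in cluster 6, whereas for Malat1 they lie close together and highest in cluster 6.

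The separation of the libraries was found within every cluster for the rRNA side. The ratio of the WT-labelled library to that labelled dKO ran over the 8 clusters from 2.42-fold to 3.52-fold for Gm42418, from 1.85-fold to 2.94-fold for AY036118, from 2.69-fold to 3.84-fold for Cmss1, from 2.68-fold to 3.87-fold for Cdk8 and from 2.37-fold to 3.29-fold for Lars2. It was likewise present in each of 8 bins of ribosomal protein share and each of 4 bins of UMIs per cell, in which Gm42418 differed by 2.13-fold to 3.02-fold and by 2.88-fold to 3.28-fold. Neat1 was higher in the WT-labelled library beyond counting error in 6 of 8 clusters. Malat1 was higher in that library in 3 clusters and lower in 3. Its ratio of the WT-labelled library to that labelled dKO ran from 0.83-fold to 1.10-fold over the bins of ribosomal protein share, above 1 in 4 of 8. Over the bins of UMIs per cell it ran from 0.67-fold to 1.12-fold, above 1 in 2 of 4. When classes were taken from single marker UMIs in place of clusters, Gm42418 differed by 2.74-fold in cells with Siglech, 2.54-fold with Lyz2, 2.91-fold with Mki67, 2.84-fold with Foxp3 and 2.92-fold in other cells with a Cd3 UMI. Over all cells it differed by 2.89-fold.

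The ribosomal protein share of a cell, the percent of its UMIs from the 84 ribosomal protein genes, ran from a 5th percentile of 10.1% to a 95th percentile of 38.1% in the WT-labelled library and from 10.7% to 30.6% in the dKO-labelled library. Malat1 and Neat1 were higher in cells with a lower share. Malat1 was at 15097 CPM (14742 to 15458) in the 309 cells under 5% of the WT-labelled library and at 6084 CPM (6048 to 6120) in the 8532 cells above 15%, 2.48-fold higher in the former. In the dKO-labelled library it was at 18136 CPM (17724 to 18556) in 401 cells and at 6076 CPM (6048 to 6104) in 13299 cells, 2.99-fold higher. Among WT-labelled cells with both receptor chains, of which 15 lay under 5%, the Malat1 difference was smaller. Its value is given with the processing alternatives. Neat1 was at 566 CPM (499 to 639) and 102 CPM (97.4 to 107) in the WT-labelled library, 5.55-fold higher in cells of low share, and at 359 CPM (303 to 422) and 77.5 CPM (74.3 to 80.7) in the dKO-labelled library, 4.63-fold higher.

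These ratios stand among many of the same size. Of the 3383 genes with at least 50 CPM in the WT-labelled library, 32.5% were over 2-fold higher in cells of low share and 26.3% over 2-fold lower; in the dKO-labelled library, with 3440 genes, the figures were 27.5% and 32.4%. A share of UMIs that ribosomal protein genes do not take also raises all other genes in CPM. With UMIs of ribosomal protein, mitochondrial and member genes left out of the denominator, the log2 ratio of Malat1 went from 1.31 to 0.93 in the WT-labelled library and from 1.58 to 1.27 in the dKO-labelled library. The levels also differed among cells of ordinary share: Malat1 went from 8592 and 8263 CPM at 10% to 15% to 5127 and 4879 CPM at 25% to 30%, and Neat1 from 220 and 122 CPM to 71.5 and 39.6 CPM. At 30% to 35% Malat1 was higher again, at 5353 (5243 to 5465) and 5367 CPM (5221 to 5515), and over 35% it was at 4442 and 5065 CPM. Neat1 was at 58.5 and 44.6 CPM at 30% to 35%.

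**Figure D4:**
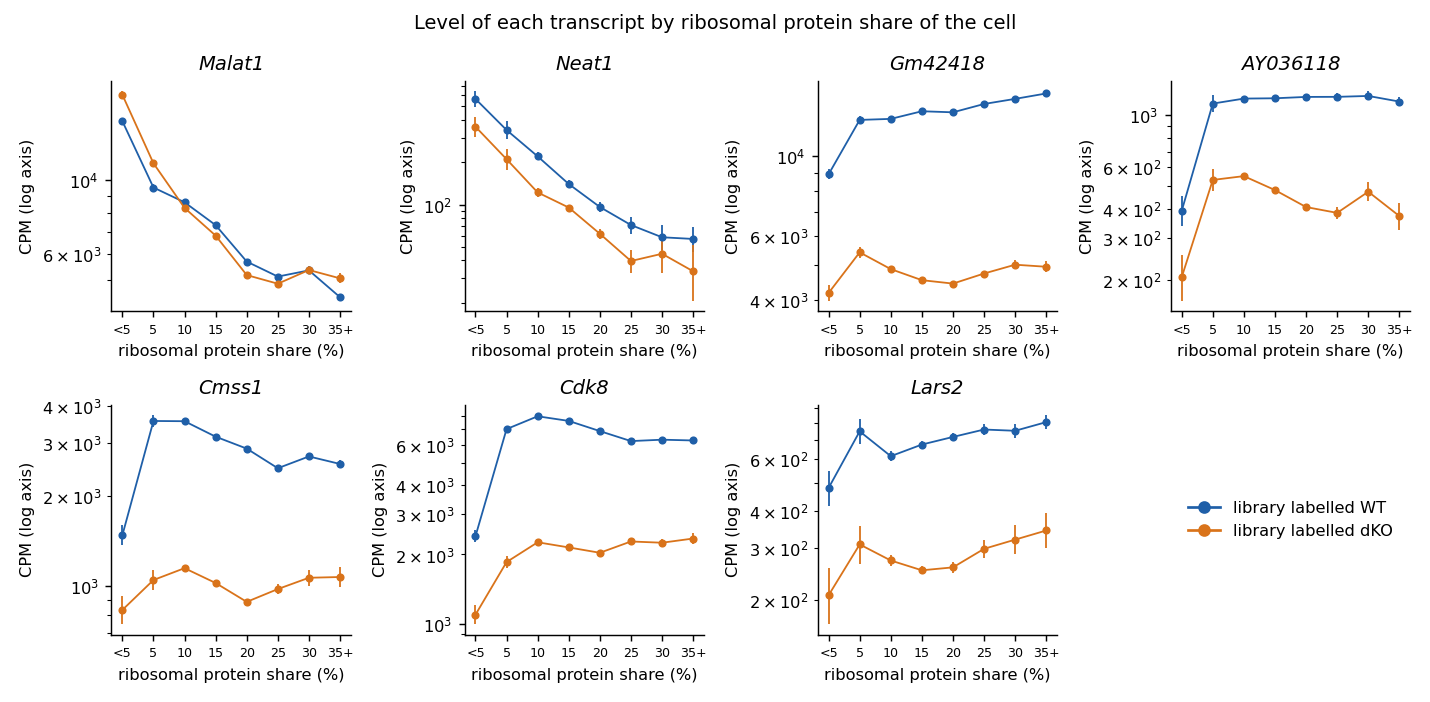
Lines give the level of each transcript in CPM on a log axis in cells binned by ribosomal protein share in steps of 5 percentage points, for both libraries, with exact 95% intervals for counting error. Malat1 and Neat1 are highest in the cells under 5%, with 15097 and 566 CPM in the WT-labelled library, whereas the other 5 genes are lowest there.

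In the filtered cells the rRNA side was lower in the cells of low share, but in the dKO-labelled library the direction depended on which cells were included. In the WT-labelled library, Gm42418 was at 8902 CPM (8630 to 9180) in cells under 5% and at 13635 CPM (13582 to 13689) in cells above 15%, a log2 ratio of −0.62 (−0.66 to −0.57), and AY036118 was at 392 CPM (337 to 454) and 1186 CPM (1170 to 1202), a log2 ratio of −1.60. Cdk8 had a log2 ratio of −1.53, Cmss1 of −0.96 and Lars2 of −0.58. In the dKO-labelled library the log2 ratios were −0.12 (−0.19 to −0.05) for Gm42418, −1.13 for AY036118, −0.96 for Cdk8, −0.24 for Cmss1 and −0.34 for Lars2. With all deposited cells the ratios of the dKO-labelled library turned to 0.58 for Gm42418, 0.57 for AY036118, 0.65 for Cmss1 and 0.76 for Lars2, and that of Cdk8 was −0.01, while in the WT-labelled library Lars2 turned to 0.0091. Cluster 6 held 200 of the 309 and 283 of the 401 filtered cells under 5%.

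Without cluster 6, AY036118 and Cdk8 were lower in the filtered cells of low share in both libraries, at log2 ratios of −0.78 and −1.09 in the WT-labelled library and −0.61 and −0.29 in the dKO-labelled library. Gm42418 was then at −0.17 in the former but at 0.74 in the latter, Cmss1 at −0.58 and 0.67, and Lars2 at 0.26 and 0.69, so that the direction of these 3 genes turned in at least 1 library. Malat1 was at 1.06 and 1.53 and Neat1 at 3.12 and 3.10 without that cluster. The higher level of Malat1 and Neat1 was also found within each cluster that held at least 20 cells of low share, which were clusters 0 and 4 of the WT-labelled library and clusters 2 and 5 of the dKO-labelled library, with log2 ratios of 1.21 to 1.89 for Malat1 and 1.60 to 2.95 for Neat1. In the same clusters the rRNA side had no common direction. Gm42418 was at 0.32 (0.22 to 0.42) in cluster 0 and −0.87 in cluster 4 of the WT-labelled library, and at 1.48 and 0.05 in clusters 2 and 5 of the dKO-labelled library. Lars2 was at 0.78, −1.67, 1.21 and 0.22 in that order, Cmss1 at −0.43, −0.75, 0.75 and 0.66, and Cdk8 at −0.73, −1.01, 0.04 and −0.11. AY036118 was below 0 in each of them, at −0.50, −1.31, −0.56 (−1.32 to 0.10) and −0.76. Cluster 6 itself had too few cells of high share for such a ratio.

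Genes from the same loci or pathways did not all move as the members did. Of 7 further symbols at or near rRNA sequence, 4 were over 2-fold higher in the WT-labelled library and none over 2-fold lower, against 2.25% and 3.28% of the 8294 genes with at least 10 CPM over both libraries, and their median log2 ratio of dKO over WT was −1.23. Since the list was chosen with earlier results of these data known, nothing is read from that count. Camk1d, a calmodulin-dependent kinase, had 556 and 226 CPM, and Filip1l, which overlaps Cmss1 on the other strand, 263 and 112 CPM. Jarid2, a cofactor of Polycomb repressive complex 2, had 168 and 136 CPM. The libraries' counts of Filip1l and Cmss1 cannot be separated with certainty where their reads overlap unless strand was used.

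Gm26917, the long noncoding RNA that ends 616 bases before Gm42418 on the same strand, was named after its values were seen. It had 142 CPM (WT) and 72.2 CPM (dKO), but unlike Gm42418 it was highest in cluster 6, with 541 CPM (467 to 622) and 189 CPM (144 to 243), and higher in cells of low ribosomal protein share by a log2 ratio of 2.01 and 1.91. For each 100 UMIs of Gm42418 there were 7.75 and 9.52 UMIs of Gm26917 in cluster 6 and between 0.493 and 2.40 in the other clusters.

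Between the libraries, Cdk8 had a larger ratio than the other genes of its complex, and Lars2 than the other mitochondrial enzymes that load tRNAs. Of the 6 other genes of the Mediator kinase module that passed 10 CPM, none was over 2-fold different between the libraries, with log2 ratios of dKO over WT between −0.48 and 0.65, against −1.71 for Cdk8. In cells of low ribosomal protein share 4 of these 6 were over 2-fold higher in the WT-labelled library and 3 in the dKO-labelled library, and none was over 2-fold lower, against 31.2% and 29.8% higher and 21.3% and 24.7% lower among all 8294 genes with at least 10 CPM. Cdk8 had log2 ratios of −1.53 and −0.96. Med13, which links the module to Mediator, and its paralog Med13l had log2 ratios of low over high share of 2.43 and 2.53 in the WT-labelled library and 2.68 and 2.52 in the dKO-labelled library. Of 8 other mitochondrial aminoacyl-tRNA synthetases, none was over 2-fold different between the libraries, with ratios between −0.41 and 0.08 against −1.39 for Lars2. Fars2, the phenylalanyl-tRNA synthetase, had a log2 ratio of low over high share of 2.64 in both libraries. In cells of low share, 3 (WT) and 4 (dKO) of the 8 were over 2-fold higher and 1 and 3 over 2-fold lower. They stand against the same 31.2% and 29.8% higher and 21.3% and 24.7% lower over all genes. With 8 genes, nothing is read from these counts.

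The proteins of the nuclear bodies that Malat1 and Neat1 belong to were counted in the same way, against 31.2% (WT) and 29.8% (dKO) over 2-fold higher and 21.3% and 24.7% over 2-fold lower in cells of low share among all genes with at least 10 CPM. Among 12 nuclear speckle genes, 2 in the WT-labelled library were over 2-fold higher in cells of low share and none over 2-fold lower, and in the dKO-labelled library none was higher and 2 were lower, with medians of 0.24 and 0.16 against medians of 0.35 and 0.23 over all genes with at least 10 CPM and UMIs in both sets of cells. Pnisr, a serine- and arginine-rich protein, was at 1.22 and 0.79 and U2af1, a subunit of the factor that binds the 3′ splice site, at −0.70 and −1.13. Among 10 paraspeckle genes, 2 (WT) and 1 (dKO) were over 2-fold higher and 1 and 2 over 2-fold lower. Pspc1 was highest, at 1.95 and 1.67, and Nudt21, a subunit of the cleavage factor for polyadenylation, at −0.93 and −1.34. None of the genes of these 2 lists was over 2-fold different between the libraries.

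Other long noncoding RNAs split into both directions, and ribosome biogenesis genes had medians near or below 0. Of 15 long noncoding RNAs, 6 in each library were over 2-fold higher in cells of low share and 8 (WT) and 9 (dKO) over 2-fold lower, against the same 31.2% and 29.8% higher and 21.3% and 24.7% lower over all genes. Pvt1, the neighbour of Myc, was at 2.73 and 2.56, and Snhg6 and Gas5, hosts of small nucleolar RNAs whose spliced RNAs are exported, were at −3.71 and −3.51 and at −1.38 and −1.56. Snhg6 had 1 UMI in the cells of low share of each library, so that its ratios have intervals of −9.01 to −1.22 and −8.81 to −1.02. Of 16 ribosome biogenesis genes, 2 in each library were higher and 3 and 5 lower, and the counts of lower genes are near the shares over all genes. Polr1a, the largest subunit of RNA polymerase I, was at 1.46 and 1.21, Nop10, a protein of H/ACA snoRNPs, at −2.70 and −3.29, and Npm1, a nucleolar chaperone, at −1.92 and −2.42.

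**Figure D5:**
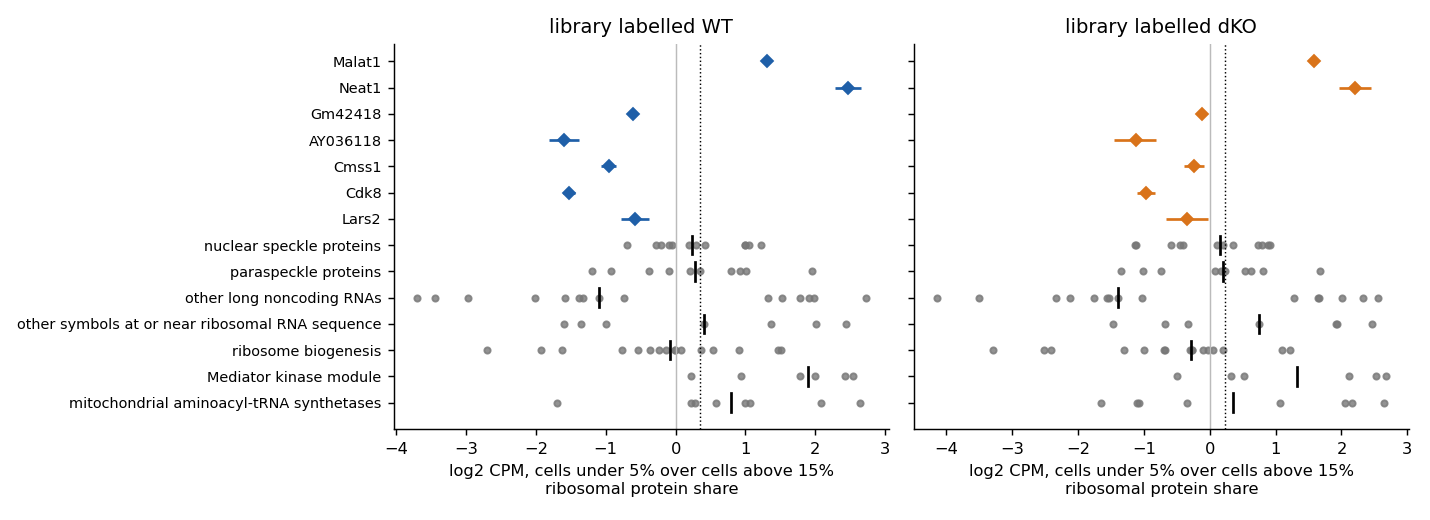
Diamonds show for each of the 7 transcripts, and grey points for each gene of 7 lists, the log2 ratio of CPM in cells under 5% over cells above 15% ribosomal protein share, by library, with exact 95% intervals on the diamonds, a black bar at each list's median and a dotted line at the median of all genes with at least 10 CPM. Cdk8 lies below 0, at −1.53 and −0.96, while the median of the other Mediator kinase genes lies above it, at 1.89 and 1.32.

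The ratio of AY036118 to Gm42418, of whose 1831 bases AY036118 lies opposite 923, was not the same in all clusters. For each 100 UMIs of Gm42418 there were 8.74 UMIs of AY036118 in the WT-labelled library and 10.1 in the dKO-labelled library. These are ratios of UMIs and are not corrected for length. Over the clusters they ran from 4.91 in cluster 6 to 10.1 in cluster 2 in the WT-labelled library, and from 7.49 in cluster 7 to 11.8 in cluster 2 in the dKO-labelled library. The ratio of Cmss1 to Gm42418 was steadier, from 18.7 to 23.9 and from 17.1 to 23.8 per 100, and that of Cdk8 ran from 32.5 to 57.1 and from 27.6 to 54.6, with its lowest values in clusters 6 and 5. The intervals of clusters 2 and 6 did not overlap in the WT-labelled library, at 9.83 to 10.4 and 4.07 to 5.89 AY036118 UMIs per 100. In the dKO-labelled library they did, at 11.5 to 12.1 in cluster 2 and 7.02 to 12.3 in cluster 6, whose ratio was 9.35.

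Across cells thinned to 1000 UMIs, Gm42418, Cmss1, Cdk8 and Lars2 had higher correlations with each other than with Malat1 or Neat1, whereas AY036118 had r above 0.1 with Gm42418 alone among the members. The points are cells that share a library, so correlations are given as descriptions. Pearson's r between Cmss1 and Cdk8 was 0.52 over 8627 cells of the WT-labelled library and 0.38 over 14391 cells of the dKO-labelled library, with Spearman's rho of 0.50 and 0.32, and it lay between 0.35 and 0.52 within clusters 0, 1 and 2. Gm42418 had r of 0.36 and 0.28 with Cdk8, 0.32 and 0.22 with Cmss1, 0.27 and 0.19 with Lars2, and 0.22 and 0.16 with AY036118. Malat1 had r of −0.08 and −0.003 with Gm42418 and 0.10 and 0.08 with Neat1. Its r with the summed ribosomal protein UMIs was −0.36 and −0.27 (rho −0.39 and −0.29), and between −0.59 and −0.19 within clusters 0, 1 and 2.

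Among 1321 genes found in at least 10% of thinned cells of each library, the 5 most like Gm42418 were Cdk8, Cmss1, Lars2, AY036118 and Il31ra, a cytokine receptor subunit, with a mean r over both libraries of 0.32, 0.27, 0.23, 0.19 and 0.18. The 5 most like Malat1 were Dock2, a Rac activator of leukocytes, Rabgap1l, Dennd4a, Mbnl1, a splicing regulator, and Arhgap15, with means between 0.20 and 0.24. The 5 most like Neat1 were Tcf4, a transcription factor of plasmacytoid dendritic cells, Cybb, a subunit of the phagocyte oxidase, Psap, Cd74 and Ccl4, with means between 0.13 and 0.15. In counts this sparse, values of this size are a description only.

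Cells with both receptor chains, which the receptor libraries place among T cells, were 2175 and 2420. In them Gm42418 had 12191 and 4205 CPM, a log2 ratio of dKO over WT of −1.54, and Neat1 had 88.3 and 53.0 CPM, below the 157 and 98.7 CPM of the cells without paired chains. Malat1 had 6213 and 5299 CPM in cells with paired chains, a log2 ratio of −0.23, and 6997 and 6985 CPM in the others.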

How the data were processed

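Whole-number UMI counts, not normalized, were deposited by the authors as 1 matrix per genotype, limited to droplets called as cells. The matrix header names Cell Ranger 7.0.1, and the submitters' processing notes name mm10. Whether reads in introns were counted, and with which strand setting, is not given in the sources used here. The deposited receptor tables list contigs with their UMI counts and served to find cells with paired TRA and TRB chains. CPM, ratios and shares were computed here from summed counts.

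The members, the gene lists and the rules were chosen with earlier results of these data known. Cells with over 200 genes and under 5% mitochondrial UMIs were kept, as in the study's methods, and no cell had under 500 UMIs. Clusters came from Seurat 5.3.0 in R 4.3.3 (genes in over 3 cells, 2000 variable genes, 30 integration dimensions, 9 components, resolution 0.1, seed 1). A cluster was named from its markers where they did not go against its leading 10 genes. At most 4 genes per list were named (the highest and lowest mean ratio of low over high ribosomal protein share and the 2 highest levels, at 10 CPM or more over both libraries), and the 5 genes most like Malat1, Neat1 and Gm42418.

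Intervals are exact (Poisson for CPM, conditional binomial for ratios, Clopper-Pearson for shares). A count of 0 allows up to 3 UMIs, or 0.128 and 0.0794 CPM per library. The automatic threshold of Scrublet (scanpy 1.11.5) marked 0 cells in either library, so the highest scores at 0.8% per 1000 cells and cells with at least 2 TRB chains were marked, 1007 and 2542 cells, and kept in the reported values. TMM factors, an alternative scaling, came from edgeR 4.0.16. Transcripts of GENCODE M21 were compared with blastn 2.17.0. Ratios and intervals were tested on simulated data with 200 changed genes in the comparison of the libraries over all cells: each direction was recovered, and 96.0% of intervals covered the true ratio. The simulated counts were drawn from the Poisson model that the intervals assume. The simulation thus checks the computation and not the larger spread between real cells. Alternatives were other cells, scalings, denominators, weights, limits and class definitions. The values of 1 gene that the naming rule picks are not reported here.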

Additional observations from a re-analysis of the deposited data

Results flagged for a closer look

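Malat1 differed between the libraries in opposite directions in different clusters, beyond counting error. It was lower in the dKO-labelled library by a log2 ratio of dKO over WT of −0.26 in cluster 0, −0.078 in cluster 3 and −0.32 in cluster 4, and higher by 0.048 in cluster 2, 0.16 in cluster 5 and 0.13 in cluster 6. The difference between these clusters was not tested, since each genotype has 1 library. The difference in cluster 2 fell within counting error with the denominator without ribosomal protein, mitochondrial and member UMIs, at 0.0045, and was 0.38 with CPM averaged over cells. That in cluster 4 was −0.00075 with CPM averaged over cells. The difference in median depth had the same sign as that of Malat1 in clusters 0, 2, 3 and 5 and the opposite sign in clusters 4 and 6. Depth was higher in the dKO-labelled library in clusters 2, 4 and 5, at 1655 (WT) and 3048 (dKO), 2634 and 4830, and 1857 and 2861 UMIs per cell. It was lower there in clusters 0, 3 and 6, at 1629 and 1483, 1799 and 1389, and 1348 and 809 UMIs. The part of depth in the result was not tested.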

How the results depend on the processing

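All values here are log2 ratios. No paired analysis was possible because each genotype has 1 library. Of 262 alternative values, 120 moved by less than counting error, 128 moved by more and kept their sign, and 14 changed sign; no value rests on a test, and the cause of these changes was not tested. Keeping the members and ribosomal protein genes in the clustering moved none of 24 values beyond counting error, and leaving out shared barcodes none of 7.

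For the dKO over WT ratio over all cells, Malat1 (−0.01) was −0.0044 with all deposited cells, 0.0055 with TMM, 0.018 with median of ratios, −0.091 with the denominator without ribosomal protein, mitochondrial and member UMIs (the reduced denominator), 0.096 as a mean over cells, −0.0017 with equal cluster weights, −0.23 in cells with paired chains, −0.097 in cells thinned to 2000 UMIs, and −0.0042 without cluster 6 and cells of low share. The log2 scaling factor of dKO over WT, which is subtracted from each ratio, was −0.02 with TMM and −0.03 with median of ratios. Gm42418 (−1.53) was, in that order, −1.52, −1.51, −1.50, −1.61, −1.55, −1.49, (paired chains) −1.54, −1.52 and −1.54, and −1.55 without marked doublets.

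For low over high ribosomal protein share, Malat1 (1.31 WT, 1.58 dKO) was 1.45 and 1.73 with limits of 4% and 18%, 0.93 and 1.27 with the reduced denominator, 1.35 and 1.75 with all deposited cells, 1.06 and 1.53 without cluster 6, and 0.28 in WT cells with paired chains. Gm42418 (−0.62 and −0.12) was −0.996 and −0.43 with the reduced denominator, −0.20 and 0.58 with all deposited cells, −2.43 and 2.15 with paired chains, −0.17 and 0.74 without cluster 6, and −0.35 in dKO with the other limits. The values with paired chains rest on 15 and 4 cells of low share. Lars2 was 0.0091 (WT) and 0.76 (dKO) with all deposited cells and 0.26 and 0.69 without cluster 6. In dKO, Cmss1 was 0.65 and 0.67 under these settings, and AY036118 was 0.57 with all deposited cells and 0.84 with paired chains.

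With the reduced denominator, cluster 6 over other cells was 0.93 (from 1.24) and 1.13 (from 1.38) for Malat1 and −1.26 (from −0.95) and −1.47 (from −1.22) for Gm42418. Without marked doublets, AY036118 over Gm42418 in WT was −3.55 (from −3.52). Depth limits Neat1 most, with 3209 and 3440 UMIs in all, and no setting replaces biological replicates.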
